A study of Mus musculus with 48 samples.

Results

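Serum response factor (Srf) and 9 genes of the smooth muscle contractile apparatus and its anchorage (Acta2, Actg2, Tagln, Cnn1, Cnn2, Myl9, Tpm1, Tpm2 and Vcl) were followed through the hourly time course of NIH3T3 cells, a mouse fibroblast line. All probe sets whose only gene symbol was one of these 10 were taken, which gave 20 of the 45037 probe sets on the array. For each gene the probe set with the highest mean leads, and 16 of the 20 probe sets lay on average above the median over the array, including the leading probe set of 9 genes. Cells from ATCC had been grown to confluence in medium with serum and synchronized with forskolin, an activator of adenylyl cyclase that brings the clocks of cells in culture into phase. RNA was collected hourly from 20 to 67 h after forskolin and hybridized to 1 Affymetrix array per hour, 48 arrays in all. Every array came from treated, wild-type cells of 1 line, with no untreated culture and no second array at any hour. The course was read as a whole and as 2 spans of 24 arrays, hours 20 to 43 and hours 44 to 67, and p-values measure the scatter between hourly arrays, not between independent time courses.

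SRF is a MADS-box transcription factor that binds the CArG box, a short element with an AT-rich core between a CC and a GG. In fibroblasts it works with the cofactors MRTF-A and MRTF-B, which are held in the cytoplasm by monomeric actin and move to the nucleus when actin polymerizes, and with the ternary complex factors of the Elk family. Its best known targets include the actins, calponins, transgelin, tropomyosins and vinculin, the genes of stress fibers, of focal adhesions and of the contractile state of smooth muscle and myofibroblasts, and Srf itself.

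The fibroblast label was checked against marker genes. All 8 fibroblast markers, Vim and Col1a1 among them, lay above the median of all probe sets (6.67 on the log2 scale of microarray intensity), with means from 16.40 to 19.01. Of 6 late smooth muscle markers, 2 did (Lmod1, mean 11.15, and Smtn, 12.47), while the defining Myh11 (smooth muscle myosin heavy chain, 5.72) and Des (5.43) stayed near the floor of the scale. Of 4 cardiac, 4 endothelial and 4 epithelial markers 0 lay above that median, and 1 of 6 skeletal muscle, 1 of 4 macrophage and 1 of 3 adipocyte markers did. RNA quality varied between arrays: the β-actin 3′ control probe set exceeded the 5′ one by 1.13 (median, log2), and by more than 1.4 on 10 arrays, 7 in the first 24 h and 3 in the last, with a maximum of 2.42 at hour 36. Beside these, the arrays of hours 52 to 55 had BioB spike-in values 0.90 higher than the other arrays.

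The promoters of the members are shown because a CArG box in them is the feature that ties such genes to SRF. RefSeq promoter sequences (GRCm38.p6, from 250 bases before to 50 after an annotated start) were held for 8 of the 10 members, all but Actg2 and Tagln. They were searched for CCNNNNNNGG in which all 6 central bases were A or T, a pattern that is its own reverse complement and so covers both strands. A match stood in 4 of the 8, against 1.63% of all 32851 promoters. The first count is of genes and the share is of single promoters, which belong to 27025 genes. Known SRF targets are among the members, so the contrast is a description and no test. Each stretch below reads 5′ to 3′ on the strand of the gene, ends before the annotated start, and carries the match in capitals.
Srf (chr17:46556165-46556294, minus strand): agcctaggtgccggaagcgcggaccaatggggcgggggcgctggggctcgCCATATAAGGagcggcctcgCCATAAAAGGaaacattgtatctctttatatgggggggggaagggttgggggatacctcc
Cnn2 (chr10:79988494-79988599, plus strand): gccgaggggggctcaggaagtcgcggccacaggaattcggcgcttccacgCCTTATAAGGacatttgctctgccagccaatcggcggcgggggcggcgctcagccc
Myl9 (chr2:156775253-156775362, plus strand): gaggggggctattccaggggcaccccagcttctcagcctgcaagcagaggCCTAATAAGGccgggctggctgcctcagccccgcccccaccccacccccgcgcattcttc
Vcl (chr14:20929148-20929230, plus strand): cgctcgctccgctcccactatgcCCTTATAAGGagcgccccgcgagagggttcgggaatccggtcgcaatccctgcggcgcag
Acta2 (chr19:34255374-34255507, minus strand): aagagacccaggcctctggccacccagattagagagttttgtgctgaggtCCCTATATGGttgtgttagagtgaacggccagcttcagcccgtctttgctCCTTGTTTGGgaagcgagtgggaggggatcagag
The Srf promoter held 2 matches, at positions -82 and -62 from the start, and 2 or more matches occurred in 0.0183% of all promoters. The single matches lay at -56 in Cnn2, -161 in Myl9 and -227 in Vcl. The Acta2 stretch is shown for its near matches: at -84 and -34 it carried elements in which 5 of the 6 central bases were A or T, a looser pattern that 8.50% of all promoters held. For Srf and Acta2 other annotated starts lie further upstream, so these stretches fall inside the annotated span of the gene. No match lay in the promoter sequences of Cnn1, Tpm1 and Tpm2. A match in letters is a description of sequence, not a measured binding site.

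Most of the members declined over the 2 days. Of the 9 members measured above the median of all probe sets, 6 fell by the test of a linear trend (Srf, Acta2, Actg2, Tagln, Cnn2 and Tpm2). By that test 1 rose (Tpm1) and 2 did not pass (Myl9 and Vcl). A trend called in this way need not be even through the course. The later 24 h stood 2.41-fold below the earlier for Actg2 and 1.29-fold for Tagln, and between 1.10-fold and 1.11-fold for the other 4 that fell. Over all 45037 probe sets, 16.2% fell and 14.2% rose by the same test, and among the probe sets above the median of all, 26.4% fell and 26.4% rose. The median slope of the 9 members was -0.13 log2 units per 24 h, beside 0.00 for the probe sets above the median. Fewer cells of a kind and less RNA per cell cannot be told apart in these bulk samples. Of the 8 fibroblast markers, 4 rose (Col3a1 by 0.17, Pdgfrb by 0.19, Col1a1 by 0.06 and Col1a2 by 0.03 per 24 h) and 2 fell (Thy1 by 0.45 and Vim by 0.02), and Fabp4 of the adipocyte markers rose by 0.58 and Tnnt3 of the skeletal muscle markers by 0.44. Below the median of all probe sets Csf1r (macrophage) fell by 0.48 and Myh6 (cardiac) by 0.03, and no smooth muscle, endothelial or epithelial marker passed. Csf1r had a median of 5.48, near the floor, and its highest value, 8.81, at hour 24, an array of high β-actin difference. With that difference in the fit its slope was -0.27 and did not pass (adjusted p = 0.118). The part of these markers in the members' declines was not tested.

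**Figure D1:**
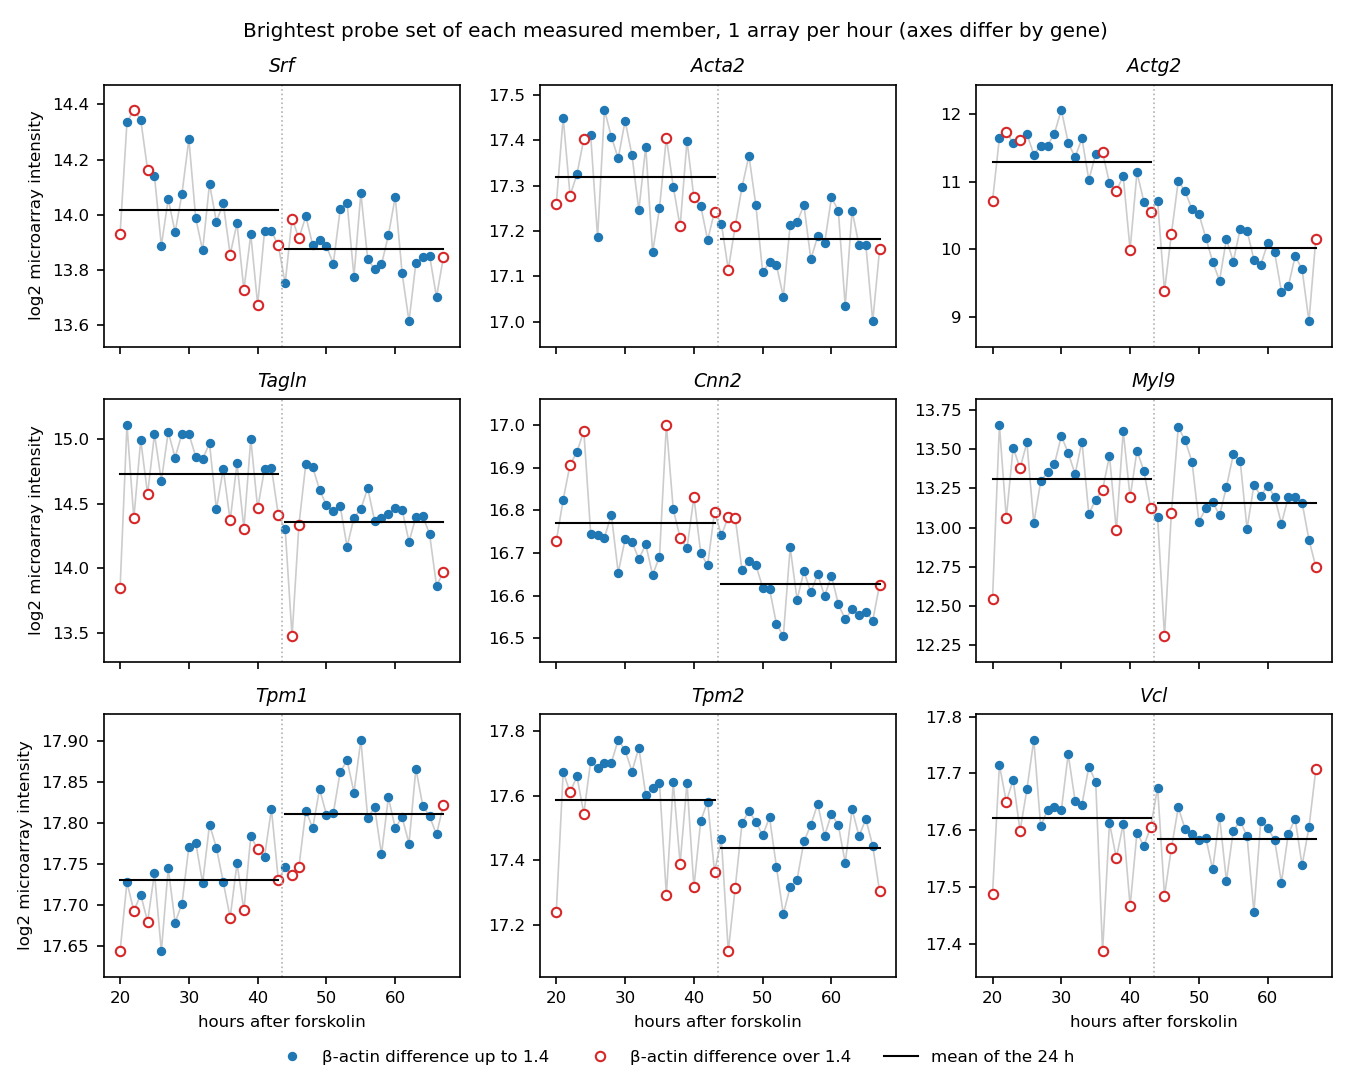
Log2 microarray intensity (y axis, scaled for each gene) against hours after forskolin (x axis) for the leading probe set of the 9 measured members. Each point is 1 array, open red points are the 10 arrays with a β-actin 3′ minus 5′ difference over 1.4, and the black lines are the means of hours 20 to 43 and 44 to 67. Actg2 runs from a highest value of 12.07 at hour 30 to a lowest of 8.94 at hour 66, while Tpm1 is the 1 gene whose later mean is the higher.

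The gene of the regulator, Srf (chr17:46546838-46558267), was highest early in the course. Its leading probe set had a lowest, median and highest value of 13.67, 13.97 and 14.38 in the first 24 h and of 13.61, 13.85 and 14.08 in the last. The 3 highest arrays of the course were hours 21 to 23, after a lower hour 20 (13.93). Only 1 array of the last 24 h lay below the whole range of the first, whose lowest array, hour 40, had a high β-actin difference, and without the 10 arrays of high difference 12 of 21 later values lay below all 17 earlier ones. The slope was -0.15 ± 0.036 (SE, 48 arrays) log2 units per 24 h (adjusted p = 0.000824), and Srf was lower in the later array of 20 of the 24 pairs taken at the same hour of the cycle. The leading Srf probe set is of a kind (suffix _s_at) that can match more than 1 transcript. The second Srf probe set fell further, by 0.44 ± 0.079 per 24 h (adjusted p = 1.28e-05), from 6 h medians of 10.41 at hours 20 to 25 to 9.64 at hours 62 to 67. Those opening hours carried much of the decline of the leading probe set: without hours 20 to 25 its slope was -0.08 and no longer passed (adjusted p = 0.109).

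The smooth muscle actins declined together but by very different amounts of array signal. Their leading probe sets lay at unlike levels, with means of 17.25 for Acta2 and 10.66 for Actg2. The part of level in the size of a change was not tested. Acta2 (chr19:34240336-34255585) encodes α-smooth muscle actin, the standard marker of myofibroblasts. Its values ran from 17.15 through a median of 17.31 to 17.47 in the first 24 h and from 17.00 through 17.18 to 17.37 in the last. The later values were mostly the lower, and 8 of the 24 lay below every earlier one. The slope was -0.13 ± 0.023 per 24 h (adjusted p = 7.68e-06), and the later 24 h stood 1.10-fold lower. The other 2 Acta2 probe sets sat at the floor, with means of 5.58 and 5.43.

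Actg2 (chr6:83512909-83536251) encodes γ-smooth muscle actin, the enteric isoform. It ran from 10.00 through a median of 11.42 to 12.07 in the first 24 h and from 8.94 through 10.02 to 11.01 in the last. The spans overlapped in part: 12 of the 24 later arrays lay below every earlier array, or 18 of 21 once the 10 high-difference arrays were left out, and all 24 pairs were lower in the later array. The slope was -1.20 ± 0.11 per 24 h (adjusted p = 6.28e-13), and the later 24 h were 2.41-fold below the earlier (difference -1.27 ± 0.12, adjusted p = 8.52e-09). The level held near its start through hours 32 to 37, with 6 h medians of 11.63, 11.56 and 11.39, and then went down through 10.79 and 10.66 to 9.99, 10.02 and 9.58. Actin transcripts are closely related in sequence, and the leading Acta2 probe set is of a kind (suffix _s_at) that can match more than 1 transcript, so the split of signal between actin genes is uncertain.

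Of the actin-binding members, Tagln and Cnn2 fell and Cnn1 was not measurably expressed. Tagln (chr9:45929628-45936058), encoding transgelin or SM22α, a small protein of stress fibers, ran from 13.85 through a median of 14.79 to 15.11 in the first 24 h and from 13.47 through 14.40 to 14.81 in the last. Only 1 later array, hour 45, lay under the earlier range, because hour 20 was itself low. The slope was -0.31 ± 0.078 per 24 h (adjusted p = 0.00149), and the later 24 h stood 1.29-fold lower, in 21 of 24 pairs. Both lowest arrays of that gene, hours 45 and 20, were among the 10 with a high β-actin difference, and without those 10 arrays 13 of 21 later values lay below all 17 earlier ones.

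Cnn2 (chr10:79988600-79995400), the calponin of non-muscle cells, ran from 16.65 through 16.74 to 17.00 in the first 24 h and from 16.51 through 16.62 to 16.78 in the last. Here 15 of the 24 later arrays fell below the whole earlier range. The slope was -0.15 ± 0.020 per 24 h (adjusted p = 5.55e-08). Cnn1 (chr9:22099221-22109221), the calponin of differentiated smooth muscle, had 1 probe set, and it stayed between 5.40 and 5.45 on all 48 arrays, at the floor of the scale. Its slope of -0.01 ± 0.0022 formally passed the test (adjusted p = 0.0250) but describes a range of 1.04-fold, and Cnn1 is not counted among the 9 measured members.

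Myl9 (chr2:156775408-156781657), the regulatory light chain of smooth muscle and non-muscle myosin II, scattered more than it drifted. It ran from 12.54 through a median of 13.36 to 13.65 in the first 24 h and from 12.31 through 13.18 to 13.64 in the last. The spans overlapped almost completely, and 13 of 24 pairs were lower in the later array. The slope of -0.11 ± 0.070 per 24 h did not pass (adjusted p = 0.163). Its lowest arrays, hours 45 and 20, were those of Tagln, and both had a high β-actin difference.

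The tropomyosins, the coiled coils that lie along actin filaments, went in opposite directions. Tpm1 (chr9:67022590-67049672) ran from 17.64 through a median of 17.73 to 17.82 in the first 24 h and from 17.74 through 17.81 to 17.90 in the last. Of the later arrays 10 exceeded every earlier one, and 22 of 24 pairs were higher in the later array. The slope was 0.08 ± 0.010 per 24 h (adjusted p = 3.08e-09), a 1.06-fold difference between the 2 spans. The next brightest Tpm1 probe set rose as well, by 0.17 ± 0.047 per 24 h (adjusted p = 0.00402), whereas a dimmer one had a slope of -0.05 that did not pass (adjusted p = 0.50) and the fourth sat at the floor. Tpm1 gives rise to many spliced forms, and which forms each probe set reads was not determined here.

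Tpm2 (chr4:43513726-43523583) ran from 17.24 through a median of 17.64 to 17.77 in the first 24 h and from 17.12 through 17.48 to 17.58 in the last. No later array reached the earlier median, and 2 later arrays lay below the whole earlier range, or 15 of 21 once the 10 high-difference arrays were left out. All 4 Tpm2 probe sets fell: the leading one by 0.12 ± 0.036 per 24 h (adjusted p = 0.00613), the next by 0.13 and 0.12, and the dimmest by 0.42 ± 0.064 (adjusted p = 6.47e-07). The leading probe set is of a kind (suffix _x_at) that may also read related transcripts. With a term for hours 52 to 55, where Tpm2 had its lowest run of values outside the arrays of high β-actin difference, the slope was -0.08 and did not pass (adjusted p = 0.0828).

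Vcl (chr14:20929383-21033676) encodes vinculin, which links actin to focal adhesions. It ran from 17.39 through a median of 17.64 to 17.76 in the first 24 h and from 17.46 through 17.59 to 17.71 in the last. No later array lay outside the earlier range at either end, and 5 of 21 lay below it once the 10 high-difference arrays were left out. The slope of -0.03 ± 0.019 per 24 h did not pass (adjusted p = 0.200). The second Vcl probe set, at a mean of 9.62, spanned 7.32-fold between hours 20 and 31 and had a slope of 0.19 ± 0.16 (adjusted p = 0.308).

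**Figure D2:**
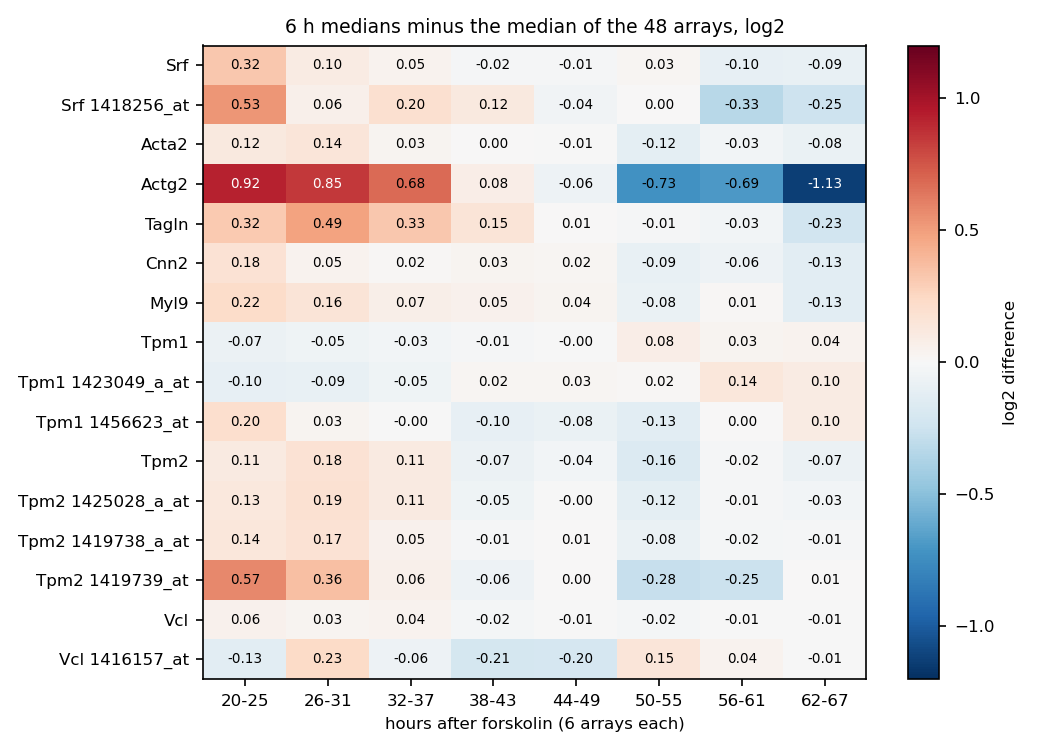
Median log2 value of each run of 6 hourly arrays (columns, hours after forskolin) minus the median of all 48 arrays, for the 16 member probe sets above the median of all probe sets (rows, grouped by gene with the leading probe set first and unnumbered). Actg2 goes from 0.92 to -1.13, both Srf probe sets are highest at hours 20 to 25 (0.32 and 0.53), and the leading Tpm1 probe set goes from -0.07 to 0.04.

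The comparison of the 2 spans, with arrays of the same cycle hour paired, gave the calls of the trend. In hours 44 to 67 Actg2, Tagln, Acta2, Cnn2, Tpm2 and Srf were lower than in hours 20 to 43 and Tpm1 was higher, beside 12.2% of all probe sets lower and 11.7% higher. Among the 22518 probe sets above the median of all, fitted alone, 5272 were lower and 5418 higher. The differences were -1.27 for Actg2, -0.37 ± 0.085 for Tagln (adjusted p = 0.00180) and between -0.14 and -0.15 for Acta2, Cnn2, Tpm2 and Srf (adjusted p from 3.41e-06 to 0.0103). That of Tpm1 was 0.08 ± 0.011 (adjusted p = 1.91e-06). Myl9 (-0.15 ± 0.072, adjusted p = 0.117) and Vcl (-0.04 ± 0.023, adjusted p = 0.200) did not pass. Once hours 52 to 55 had their own term Tpm2 was lost (adjusted p = 0.0841), as was Srf without hours 20 to 25 (adjusted p = 0.144), where Myl9 passed (-0.17, adjusted p = 0.0214).

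**Figure D3:**
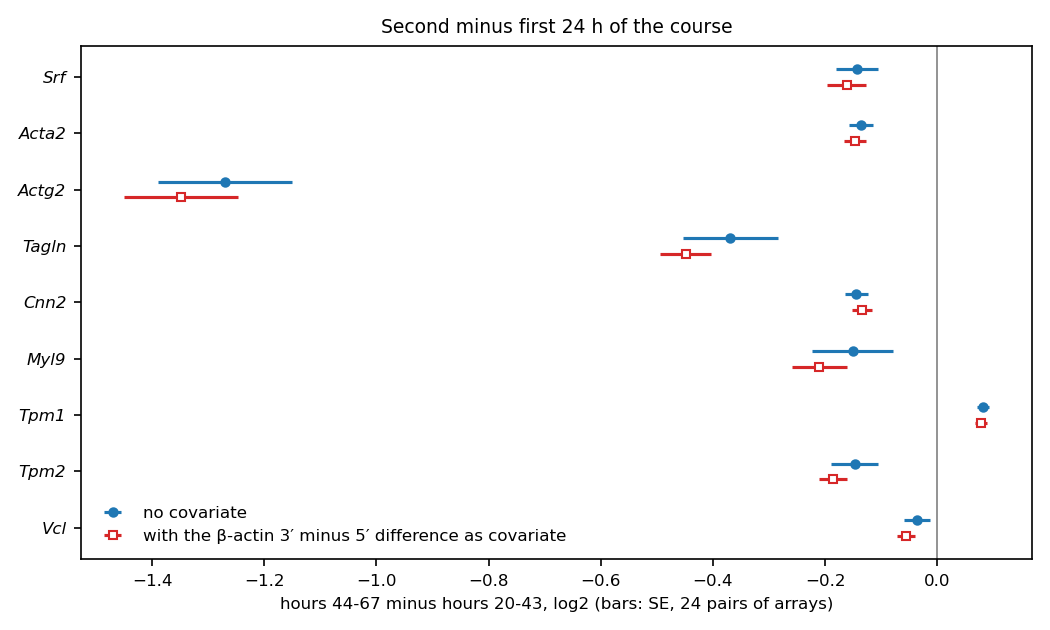
Difference in mean log2 value between hours 44 to 67 and hours 20 to 43 (x axis) for the 9 measured members (y axis), with bars of 1 SE over 24 pairs of arrays. Filled blue circles are the fit without a covariate and open red squares the fit with the β-actin 3′ minus 5′ difference of each array: Myl9 moves from -0.15 to -0.21 and Tagln from -0.37 to -0.45, while Cnn2 (-0.14 and -0.13) and Tpm1 (0.08 and 0.08) barely move.

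The β-actin 3′ to 5′ control bears directly on these genes, and it moved with most of them. In a fit with trend and cosine, 6 of the 9 leading probe sets were lower on arrays with a larger β-actin difference and 1 was higher. Of all probe sets 16.6% were lower and 20.0% higher, shares that count those near the floor too. The shares above the median of all are not given here, so the count of members is not shown to be unusual. The median coefficient was -0.15 for the 9 members and 0.01 for the probe sets above the median. Per unit of the difference Tagln changed by -0.72 ± 0.085 (adjusted p = 1.48e-09), Myl9 by -0.53 ± 0.095 (adjusted p = 1.00e-05) and Actg2 by -0.52 ± 0.17 (adjusted p = 0.0143). Tpm2 (-0.35), Vcl (-0.15) and Tpm1 (-0.04) changed the same way by less, and Cnn2 went up by 0.11 ± 0.032 (adjusted p = 0.00389). Acta2 (-0.04 ± 0.041, adjusted p = 0.677) and Srf (-0.11 ± 0.061, adjusted p = 0.177) did not pass. Without hour 36 the rise of Cnn2 was 0.06 and did not pass (adjusted p = 0.299), so that call rests on 1 array. The call of Actg2 was lost without hour 20 (-0.38, adjusted p = 0.116) or hour 45 (-0.36, adjusted p = 0.147), and that of Tpm1 without any 1 of hours 21, 36, 39 and 42 (adjusted p from 0.0540 to 0.104). Tpm1 was lost too after quantile normalization (adjusted p = 0.0968), centring on array medians (0.118) or without hours 20 to 25 (0.150), as was Actg2 without those hours (0.0843).

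Probe sets of 1 gene could differ in this respect. The second Vcl probe set changed by -1.57 ± 0.15 per unit, against -0.15 for the leading one, and the second Tpm1 probe set by -0.46 against -0.04. The second Srf probe set went the other way, 0.40 ± 0.13 (adjusted p = 0.00882), against -0.11 for the leading one. On the 10 arrays of high difference the second Vcl probe set had a median of 8.96, beside 9.86 on the other 38.

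**Figure D4:**
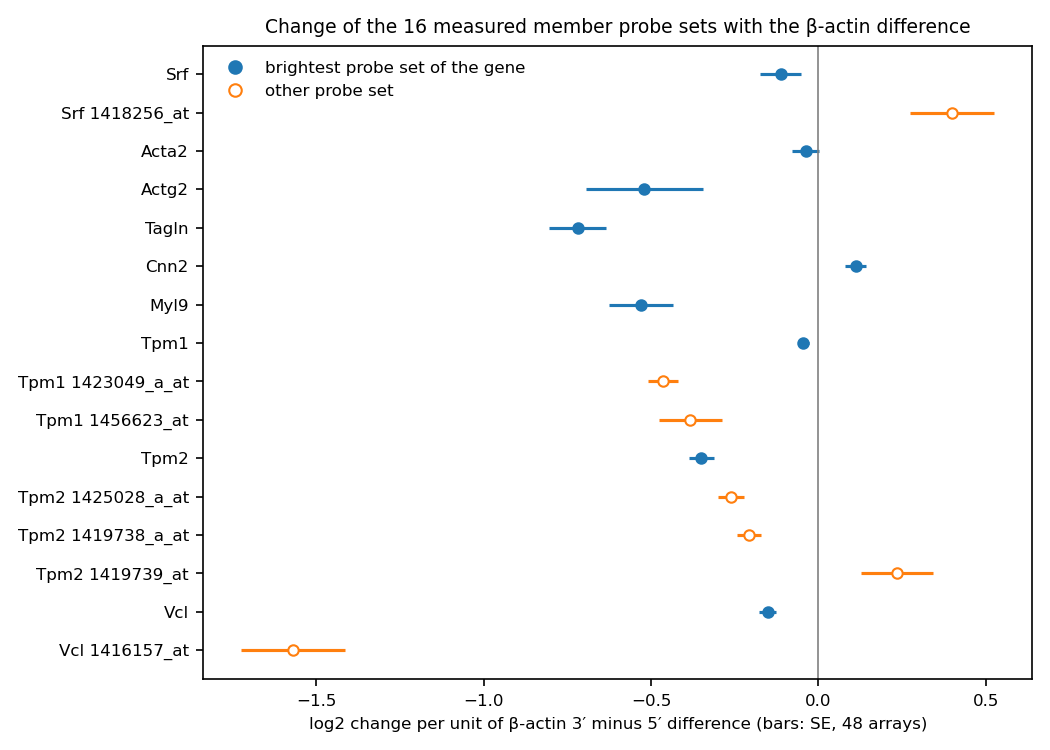
Change in log2 value per unit of the β-actin 3′ minus 5′ difference of the array (x axis, bars of 1 SE, 48 arrays) for the 16 member probe sets above the median of all probe sets (y axis). Filled blue points are leading probe sets and open orange points the others; most lie left of 0, down to -1.57 for the second Vcl probe set, while Cnn2 (0.11) and the dimmer Srf (0.40) and Tpm2 (0.23) probe sets lie to the right.

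Because 7 of the 10 high arrays were in the first 24 h, the declines were read with the control in the model as well. With that difference as a covariate 8 of the 9 members fell and Tpm1 rose, beside 15.8% of all probe sets lower and 14.5% higher. Actg2 then had a slope of -1.28 ± 0.10, Tagln of -0.42 ± 0.050, Tpm2 of -0.18 ± 0.022 and Acta2 of -0.14 ± 0.024 per 24 h. Myl9 (-0.20 ± 0.056, adjusted p = 0.00519) and Vcl (-0.05 ± 0.015, adjusted p = 0.00607) were the members that had not passed without it. Leaving out the 10 arrays gave the same 8 falls, with Myl9 at -0.19 (adjusted p = 0.00935) and Vcl at -0.08 (adjusted p = 5.67e-05), in a fit where 29.0% of all probe sets fell and 15.0% rose. The slopes of Srf (-0.17 ± 0.036), Cnn2 (-0.13 ± 0.019) and Tpm1 (0.08 ± 0.0098) with the covariate were close to those without it. The shares of all probe sets in these fits count those near the floor too, and the shares above the median of all are not given here.

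No member passed limma's cosine test or was called by the scan and the G-test together. In limma's 24 h cosine test 0 of the 9 members passed, beside 0.293% of all probe sets (132, and 67 to 399 with 1 array left out), and 3 had an unadjusted p under 0.05 (Tagln, Cnn2 and Tpm1). The fitted amplitudes, from mean to peak, ran from 0.02 for Acta2 to 0.16 ± 0.081 for Actg2 (adjusted p = 0.759), and that of Srf was 0.06 ± 0.029 (adjusted p = 0.764). By the cosine scan together with Fisher's G-test 0 members were called at about 24, 12 or 8 h, beside 0.202%, 0% and 0.0178% of all probe sets. At an unadjusted p under 0.05 the scan had 0 of the 9 with a best period over 20 and under 30 h. The leading Tpm2 probe set had an unadjusted scan p of 0.0124 at 30 h, the edge of the scan and just outside that window. The scan alone, at the looser q under 0.1, called Tpm1 at about 24 h, Cnn2 at 12 h and Myl9 at 8 h, beside 6.08%, 0.828% and 27.8% of all probe sets. Their unadjusted scan p-values were 0.117, 0.134 and 0.107. Those q-values lie below p because the share of probe sets without a rhythm was estimated at 0.266, so these calls are weak. After regression on the β-actin difference the same rule called Cnn2 at 12 h and no longer Tpm1 or Myl9. The G-test was run with the linear trend left in, which favors a 48 h component in a trending gene. It placed the strongest component of Acta2, Actg2, Tagln, Cnn2, Tpm1, Tpm2 and Vcl at 48 h, the length of the whole course. For Tagln (q = 0.0693) and Vcl (q = 0.234) it did not pass, nor for Srf at 24 h (q = 0.153). With the trend removed first, both tests together again called 0 members, beside 68, 1 and 2 of all probe sets at about 24, 12 and 8 h.

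The slopes of the leading probe sets in the 2 spans were not shown to differ. The fit held a separate level for each span and a 24 h cosine, so its slopes are those within a span. They were imprecise: Actg2 had -0.66 ± 0.37 in each span, and Tagln 0.22 ± 0.26 and 0.11 ± 0.26. Over the whole course these genes had -1.20 and -0.31. An even decline through both spans cannot be read from this test. By the test of a change of slope 0 of 9 passed, beside 7.42% of all probe sets, and 1 had an unadjusted p under 0.05 (Srf, -0.33 ± 0.12 per 24 h in the first span and -0.06 ± 0.12 in the last, adjusted p = 0.102). The dimmest Tpm2 probe set did pass (adjusted p = 0.000146): it fell by 0.98 ± 0.17 per 24 h in the first span and had a slope of 0.04 ± 0.17 in the last. The brighter Tpm2 probe sets had changes of slope of 0.25, 0.25 and 0.26 that did not pass (adjusted p from 0.0556 to 0.119).

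Among the factors that work with SRF, 2 of 7 rose, 1 fell and 4 did not pass, and among probe sets above the median of all 26.4% rose and 26.4% fell. Mrtfa, the gene of MRTF-A, fell by 0.45 ± 0.056 per 24 h (adjusted p = 7.32e-09). It was also the partner that rose most with the β-actin difference, by 0.51 ± 0.064 per unit, and its slope with that covariate was -0.37 ± 0.038 (adjusted p = 2.79e-11). Mrtfb had a slope of 0.05 ± 0.021 that did not pass (adjusted p = 0.0620), and Myocd, the gene of myocardin, the cofactor of differentiated muscle, stayed at the floor (mean 5.52). The partners that rose were Elk1, a ternary complex factor (0.13 ± 0.033, adjusted p = 0.00180), and Scai, a repressor of MRTF activity (0.15 ± 0.039, adjusted p = 0.00247).

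Of 25 further cytoskeletal genes known as SRF targets, 13 fell, 2 rose and 10 did not pass, with a median slope of -0.11 per 24 h, beside 26.4% lower and 26.4% higher and a median of 0.00 among probe sets above the median of all. With the β-actin covariate 15 fell and 2 rose. In that fit 13 of the 25 were higher and 4 lower on arrays of larger difference, beside 20.0% and 16.6% of all probe sets. All 25 lay above the median of all, where the shares for that fit are not given here, so these counts are not shown to be unusual. Tpm4, a non-muscle tropomyosin, fell by 0.36 ± 0.027 (adjusted p = 2.75e-15), Actn4, an α-actinin that cross-links actin, by 0.42 ± 0.037 (adjusted p = 2.83e-13) and Fhl1, a LIM-domain protein, by 0.86 ± 0.090 (adjusted p = 6.26e-11). Lima1, an actin-bundling LIM protein, rose by 0.13 ± 0.014 (adjusted p = 1.37e-10). The cytoplasmic actins got unlike calls without the covariate. Actg1 fell by 0.12 ± 0.016 (adjusted p = 8.04e-08), while Actb had a slope of -0.02 ± 0.0086 that did not pass (adjusted p = 0.0741). With the covariate both fell, Actg1 by 0.11 ± 0.016 (adjusted p = 3.93e-07) and Actb by 0.02 ± 0.0087 (adjusted p = 0.0301). Their slopes were not tested against each other. Of the 23 genes of this list with a promoter sequence, 6 held a CArG match (Actg1, Fhl1, Fhl2, Filip1l, Lima1 and Myl6). Over all 130 genes with a match and a level above the median of all probe sets, 38.5% fell and 22.3% rose, beside 29.5% and 26.9% of all 10366 genes above that median. The 130 genes include these 6 and the 4 members with a match, so they are not a set apart from the genes described above.

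Of 11 further smooth muscle genes, 7, Myh11 and Des among them, lay below the median of all probe sets. Of the other 4, 2 rose, 0 fell and 2 did not pass (Lmod1, slope 0.01, and Smtn, -0.10), beside 26.4% higher and 26.4% lower among probe sets above that median. Itga8, the integrin α8 chain found on smooth muscle and myofibroblasts, rose by 1.20 ± 0.032 per 24 h (adjusted p = 3.25e-31), the same size as the fall of Actg2, and Mylk, the myosin light chain kinase that phosphorylates Myl9, rose by 0.24 ± 0.019 (adjusted p = 2.11e-14).

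The measured members correlated with one another from array to array to unequal degrees. Pairs of other probe sets were not counted, so these values do not show a likeness particular to the members. Among the 28 pairs of measured members other than Tpm1, Pearson's r over the 48 arrays had a median of 0.52 and exceeded 0.5 in 15. Tpm1, the member that rose, was left out of this summary. Its own r ran from -0.71 with Cnn2 to 0.14 with Myl9, so the median over all 36 pairs is lower. These arrays share their trend and their RNA quality: once both were removed by regression, the median was 0.20 and 5 pairs exceeded 0.5. Tagln and Myl9 stayed close (0.88 before and 0.84 after), as did Acta2 and Tagln (0.73 and 0.81), whereas Tagln and Tpm2 did not (0.82 and 0.30). Tpm1 ran against Cnn2 (-0.71) and Actg2 (-0.60) before and was near 0 with Actg2 afterwards (-0.09).

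The genes whose course was most like that of Acta2 over the 48 arrays were Plaur (r = 0.77), Hoatz, Nufip1, Tfrc and Mad2l1 (0.74). Those most like Srf were Anapc15 (r = 0.78), 2810025M15Rik, Asb4, Gins2 and Wdfy2 (0.76). All 10 fell over the course, and without the linear trend their r lay between 0.48 and 0.63.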

How the data were processed

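Microarray intensity, on a linear scale, was deposited by the authors as 1 probe set summary per array for 48 arrays. The methods name GCRMA for the values and MAS5 for presence calls, and the processing notes name MAS5 alone. For neither was a version given in the sources used here. The scaling of the values is unknown. Values were taken to log2 with no constant and no filter. Of 45037 probe sets, 34945 had 1 gene symbol from the platform annotation, 932 several and 9160 none, and 64 controls were used only for array quality. The number of arrays limits the precision.

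Slopes (linear term with a 24 h cosine), cosines, differences between spans (blocked by cycle hour), changes of slope and coefficients on the β-actin difference came from limma 3.58.1 in R 4.3.3 over all probe sets, with Benjamini-Hochberg adjustment at 0.05 and the SE of the fit. COSOPT was not used: cosines of 6 to 30 h were scanned against 1000000 Gaussian null series and combined with Fisher's G-test at Storey q under 0.05. The fits were tested on simulated data. Promoters and gene positions are from RefSeq, GRCm38.p6. The closing section gives the other settings tried. All member probe sets are named, with up to 4 genes per list by smallest adjusted p of the trend, Mrtfa, Mrtfb, Myocd, Actb and Actg1 in any case, and the 5 genes most like Acta2 and Srf. The results of 1 further gene list are not reported here. The members and lists were chosen with earlier results of these data known. Other steps used matplotlib 3.10.9, pandas 2.3.3, scipy 1.17.1 and numpy 2.4.6 under Python 3.11.15.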

Additional observations from a re-analysis of the deposited data

Results flagged for a closer look

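The slope of 1 member probe set differed between the 2 spans by the test of the difference itself. The dimmest Tpm2 probe set had a change of slope of 1.01 ± 0.18 log2 units per 24 h (last minus first span, limma, adjusted p = 0.000146), with 6 h medians of 12.75, 12.54, 12.25 and 12.12 in the first 24 h and of 12.19, 11.90, 11.93 and 12.19 in the last. The leading Tpm2 probe set had a change of slope of 0.25 ± 0.13 that did not pass (adjusted p = 0.119). Whether the arrays of high β-actin difference, which were more frequent in the first span, have a part in it was not tested.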

How the results depend on the processing

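In the trend and between spans, 6 members fell and 1 rose also after quantile normalization, centring on array medians, on linear values, among probe sets above the median only, and with any 1 of the 48 arrays left out. Without the replicate block by cycle hour the difference between spans also had 6 lower and 1 higher, and the block changed no call. The cycle hours share only a number: paired arrays correlated from -0.53 to 0.63, 13 of 24 over 0.1, and 1 early array correlated best with its own hour. With all probe sets of a gene averaged 0 members rose in either comparison (Tpm1 0.05 and 0.04), and Vcl turned to 0.0784 and 0.0257. With the GAPDH control in place of β-actin 8 fell in each. With 6 h means the slopes of Srf (-0.16, adjusted p = 0.123) and Tpm2 (-0.14, 0.181) did not pass and that of Myl9 did (-0.15, 0.0404). The trend was called in 13686 probe sets, in 5959 with 6 h means and in 8318 of 28285 averaged genes, and in 12034 to 23749 with 1 array left out; the difference between spans in 10767, and in 6645 averaged genes. The 24 h cosine was called in 132 (67 to 399 with 1 array left out), in 251 with a term for hours 52 to 55, in 223 among probe sets above the median, in 84 averaged genes, in 79 and 77 with the β-actin and GAPDH covariates, in 55 and 53 without the high arrays and without hours 20 to 25, and in 0 with 6 h means, with 0 members in each. The change of slope was called in 3343 probe sets and in 5112 with the β-actin covariate. Without hours 20 to 25 it was called in 24308, with 1 member higher (Tpm2, 0.52) and 1 lower (Tpm1, -0.15), Actg2 at 0.48 and Srf at -0.0165. Without the high arrays the change of Cnn2 was 0.0121. With 1 array left out that of Actg2 ran from -0.24 to 0.24, of Tagln from -0.32 to 0.10 and of Myl9 from -0.36 to 0.0218, none passing. The coefficient on the β-actin difference was called in 16511 probe sets and in 5095 without the high arrays, with 0 members higher and 1 lower (Tagln), and with 1 array left out in 0 to 1 higher and 5 to 6 lower. By the cosine scan alone at q under 0.1, 1 member each was called at about 24 h (Tpm1), 12 h (Cnn2) and 8 h (Myl9), and after regression on the β-actin difference only Cnn2 was. In the main run none of these members had an unadjusted scan p under 0.05. The causes were not tested. Of the values of single members, 366 kept their side of the threshold, 18 lost it, 16 gained it and 5 turned sign, leaving out the refits without 1 array.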
